A study of Mus musculus with 6 samples.

Results

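The inflammatory CC chemokines are a family of small secreted proteins that draw monocytes, T cells and other leukocytes toward a site of inflammation. The 9 genes Ccl2, Ccl3, Ccl4, Ccl5, Ccl6, Ccl7, Ccl8, Ccl9 and Ccl12 were chosen by name from the 41549 genes of an mRNA table of mouse macrophages (Mφs), and each name matched 1 row. The table holds 6 libraries of wild type bone marrow-derived Mφs. Bone marrow of adult C57Bl/6 N mice had been grown into unpolarized Mφs with macrophage colony-stimulating factor, the cells had been transfected with an oligonucleotide, and IL-4 and IL-13 were then added to drive all of them into an M2, anti-inflammatory, state. In the αGlu group, 3 libraries, the antisense oligonucleotide (ASO) was directed at 5′tRF-Glu(CTC), a fragment that comes from the 5′ part of a tRNA for glutamate. In the Ctr group, also 3 libraries, it was a control oligonucleotide, so transfection and cytokines are shared by both groups. The comparison asks how the mRNA of these chemokines differs in M2 Mφs when the fragment is targeted. The fragment itself is not measured in an mRNA library, so the table holds no direct check of the ASO.

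Chemokines act through G protein-coupled receptors, and each cell type is drawn by the ligands that fit its receptors. Ccl2, Ccl7 and Ccl12 are monocyte chemoattractant proteins that act on Ccr2, the receptor that brings inflammatory monocytes out of the bone marrow and into tissue. Ccl8 belongs to the same subfamily and in mice acts through Ccr8. Ccl5, also known as RANTES, acts on Ccr1 and other receptors and recruits T cells, monocytes and eosinophils. Ccl3 and Ccl4 are the macrophage inflammatory proteins 1α and 1β, and Ccl3 acts on Ccr1. Ccl6 and Ccl9 are ligands of Ccr1 found in rodents, abundant in myeloid cells, and become more potent when proteases trim their N terminus. In Mφs, bacterial products and interferons switch on most of these genes through NF-κB and interferon-regulated factors.

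The ASO and the stretch of 5′tRF-Glu(CTC) that it pairs with are shown because they define the contrast. Capitals mark the bases of the fragment that pair with the ASO, which are bases 2 to 21 counted from its 5′ end, and both are written 5′ to 3′ as DNA letters.
antisense: taaccactagaccaccaggg
target: tCCCTGGTGGTCTAGTGGTTA
The transcripts of the 9 chemokines held no long stretch complementary to the ASO. The longest perfect pairing was 8 bases, in Ccl9, and 5 to 7 bases in the other 8 genes, compared with a median of 8 and a maximum of 13 bases over the transcripts of 11923 tested genes.

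All 9 genes lie on mouse chromosome 11 (GRCm38, GENCODE M21) in 2 groups of neighbours. The first spans 81.2 kb and holds, in this order, Ccl2 (chr11:82035571-82037453), Ccl7 (chr11:82045712-82047525), Ccl12 (chr11:82101845-82103400) and Ccl8 (chr11:82115185-82116799), all on the plus strand. The second begins 1409 kb further on, spans 138.9 kb and holds Ccl5 (chr11:83525778-83530518), Ccl9 (chr11:83572919-83578636), Ccl6 (chr11:83587882-83593087) and Ccl3 (chr11:83647844-83649355) on the minus strand and Ccl4 (chr11:83662584-83664683) on the plus strand. In RefSeq, a gene model of Ccl4 overlaps Ccl3 on the other strand. How the counting treated strand, and how reads that fit several of these related genes were assigned, is not stated in the sources used here.

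RefSeq promoters on GRCm38 were matched for 5 of the 9 genes, Ccl3, Ccl6, Ccl8, Ccl9 and Ccl12. Shown are the 250 bases before the start of 2 neighbouring pairs whose mRNA differed in opposite directions between αGlu 2 and 3 and the Ctr libraries. They are Ccl12 (chr11:82101595-82101844, plus strand), Ccl8 (chr11:82114935-82115184, plus strand), Ccl6 (chr11:83593088-83593337, minus strand) and Ccl9 (chr11:83578637-83578886, minus strand). Capitals mark each run of 8 or more bases that a promoter shares with the other member of its pair.
Ccl12: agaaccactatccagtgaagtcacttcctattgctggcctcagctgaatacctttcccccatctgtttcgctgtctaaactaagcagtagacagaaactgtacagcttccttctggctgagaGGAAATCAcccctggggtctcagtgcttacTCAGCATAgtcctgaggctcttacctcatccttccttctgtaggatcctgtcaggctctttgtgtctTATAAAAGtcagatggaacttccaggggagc
Ccl8: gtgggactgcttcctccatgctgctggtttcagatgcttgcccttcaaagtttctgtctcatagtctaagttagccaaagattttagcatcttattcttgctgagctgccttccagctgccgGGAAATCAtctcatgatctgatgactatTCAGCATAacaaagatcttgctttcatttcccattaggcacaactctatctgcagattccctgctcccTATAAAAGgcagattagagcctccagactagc
Ccl6: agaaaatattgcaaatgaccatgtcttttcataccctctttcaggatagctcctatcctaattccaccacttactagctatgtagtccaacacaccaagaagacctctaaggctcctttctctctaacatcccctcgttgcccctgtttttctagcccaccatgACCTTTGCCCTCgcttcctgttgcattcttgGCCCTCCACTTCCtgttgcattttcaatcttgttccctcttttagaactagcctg
Ccl9: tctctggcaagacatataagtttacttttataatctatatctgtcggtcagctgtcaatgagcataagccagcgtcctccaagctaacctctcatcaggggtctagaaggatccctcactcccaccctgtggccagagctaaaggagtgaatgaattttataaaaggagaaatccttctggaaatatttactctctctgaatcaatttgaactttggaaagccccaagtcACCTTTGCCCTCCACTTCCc
Ccl12 and Ccl8 shared 3 runs of 8 bases at nearly equal distances from the start. The run GGAAATCA began 128 bases before the start in both, TCAGCATA began 98 and 100 bases before it, and TATAAAAG, which holds the letters of a TATA box, 31 and 32 bases before it. The shares of all 32851 RefSeq promoters that held these runs on either strand were 0.983%, 0.481% and 1.51%. Runs were also shared across the pairs, which the capitals do not mark. Ccl9 held TATAAAAGG, as Ccl8 did, but 92 bases before the start, against 32 in Ccl8. TATAAAAG was thus not limited to the first pair. Ccl9 also shared TCCTTCTGG with Ccl12, 78 bases before the start of Ccl9 and 143 before that of Ccl12. Letter by letter at equal distance, 36.0% of the bases of Ccl12 and Ccl8 were identical, compared with a median of 25.2% between Ccl12 and all other promoters. Ccl6 and Ccl9 shared longer runs that lay at different distances. The 12 bases ACCTTTGCCCTC began 86 bases before the start of Ccl6 and 20 before that of Ccl9, and the 13 bases GCCCTCCACTTCC began 55 and 14 bases before it, with a letter-by-letter identity below that median.

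In the 5 promoters, 5 motifs were searched on both strands. NF-κB (3 G, any 5 bases, 2 C) was found in Ccl9 alone, as GGGGCTTTCC on the minus strand 35 bases before the start, and is held by 45.8% of all promoters. AP-1 (TGANTCA) was also found in Ccl9 alone, as TGAATCA 53 bases before the start, with 6.75% of all promoters holding it. The STAT6 motif, the interferon response motif and C/EBP (TTGCNNAA) were in none of the 5, and in 5.85%, 2.98% and 9.56% of all promoters.

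Total exon reads ranged from 17912831 to 30386653 per library, and the 9 chemokines took 0.0951% to 0.115% of them in Ctr and 0.140% to 0.223% in αGlu. Levels of a gene across libraries are given below as CPM, counts relative to the library size after scaling by trimmed means of M-values (TMM). Levels between genes are given as TPM, which also accounts for exon length. The library αGlu 1 lay nearer to the Ctr libraries than αGlu 2 and αGlu 3 did, so results are given with and without it. That choice was made from the values themselves and tends to widen the difference between groups. The p-values and calls without αGlu 1 do not allow for it and are descriptive only. All of these values are for bulk cultures, in which fewer cells of a type and less RNA per cell cannot be told apart.

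In αGlu 2 and αGlu 3, the mRNA of Ccl2, Ccl5, Ccl7, Ccl8 and Ccl12 was far above all Ctr libraries, and that of Ccl6 and Ccl9 was below all of them. In αGlu 1, Ccl2 and Ccl9 lay within the Ctr range, while Ccl6, Ccl12 and Ccl7 exceeded the highest Ctr library by factors of 1.11, 1.20 and 1.32. Ccl8 and Ccl5 in αGlu 1 exceeded it by factors of 5.87 and 20.3, but stayed below αGlu 2 and 3. The edgeR quasi-likelihood test with Benjamini-Hochberg adjustment over 11933 genes called none of the 9 (adjusted p under 0.1 and a log2 fold change above 1 in size), and its share of calls over all genes was 0%. In that test, an unadjusted p under 0.05 was reached by 5 of 9 chemokines, all of them higher. Of all genes, 24.7% reached it in either direction and 12.7% reached it as higher. For the same 5, limma-voom gave unadjusted p of 0.0982 (Ccl2), 0.117 (Ccl7), 0.135 (Ccl12), 0.0324 (Ccl8) and 9.39e-05 (Ccl5). DESeq2 called 5 of the 9 (Ccl2, Ccl5, Ccl7, Ccl8 and Ccl12, all higher), compared with 4.23% of 13707 genes called higher. An edgeR likelihood-ratio test also called 5 of the 9 higher, beside 3.87% of all genes. Without αGlu 1, the quasi-likelihood test called 7, the same 5 higher and Ccl6 and Ccl9 lower, compared with 8.05% of genes called higher and 10.5% called lower. Leaving out any other library called 0.

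For 5 of the 9 genes, Ccl4, Ccl5, Ccl7, Ccl8 and Ccl12, every αGlu library lay above every Ctr library, and for none did every αGlu library lie below. Among all genes 14.2% were higher and 15.9% were lower without overlap. Without αGlu 1, the groups did not overlap for 8 of the 9, with 6 higher and 2 lower, while 33.7% of all genes were then higher and 32.2% lower without overlap. The median log2 fold change (αGlu over Ctr) of the 9 was 2.70, beside 0.02 over all genes tested.

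**Figure D1:**
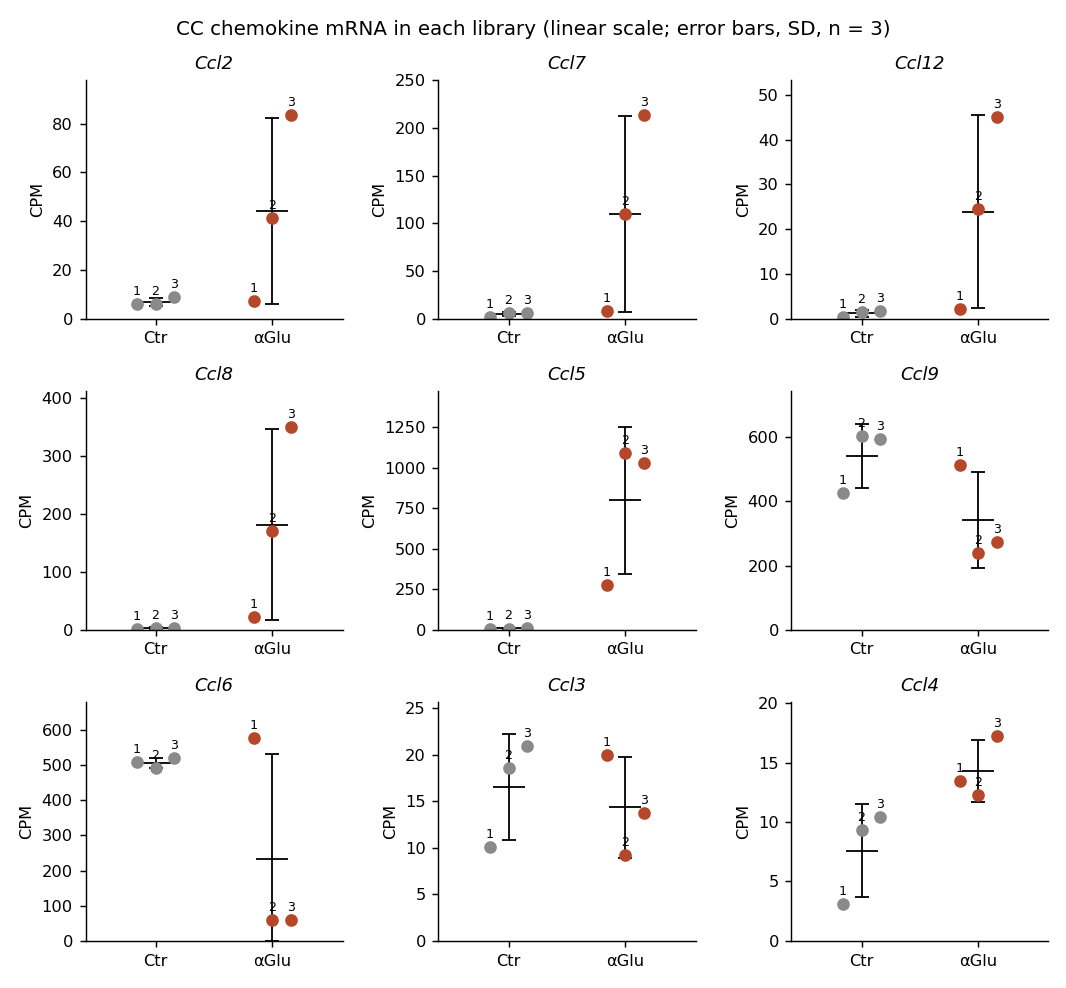
CPM (TMM-scaled, linear axis from 0) of each chemokine in Ctr 1 to 3 (grey) and αGlu 1 to 3 (red), with group means and SD (n = 3) as bars, cut at 0 for Ccl6. αGlu 2 and 3 stand above all Ctr libraries for Ccl2, Ccl7, Ccl12, Ccl8 and Ccl5 and below them for Ccl9 and Ccl6, while αGlu 1 lies close to Ctr except for Ccl5 and Ccl8.

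Among the ligands of Ccr2, Ccl2 (ENSMUSG00000035385) was at 5.82, 5.85 and 8.77 CPM in Ctr 1, 2 and 3, and at 7.40, 41.1 and 83.6 CPM in αGlu 1, 2 and 3. αGlu 1 was within the Ctr range, and the other αGlu libraries were above it. Its log2 fold change was 2.70 ± 0.82 (SE, 95% interval 0.70 to 4.70, quasi-likelihood adjusted p = 0.160). Without αGlu 1 it was 3.19 ± 0.33 (adjusted p = 0.000745), and DESeq2 on all 6 libraries gave an adjusted p of 0.00556.

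In Ctr 1 to 3, Ccl7 (ENSMUSG00000035373) was at 2.14, 5.52 and 5.80 CPM, while αGlu 1 to 3 had 7.63, 109.5 and 213 CPM. The groups did not overlap, although αGlu 1 exceeded the highest Ctr library by a factor of only 1.32. A log2 fold change of 4.62 ± 1.19 (95% interval 1.71 to 7.53, quasi-likelihood adjusted p = 0.156) was fitted, and 5.16 ± 0.45 without αGlu 1 (adjusted p = 0.000369). DESeq2 gave an adjusted p of 0.00250.

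Ccl12 (ENSMUSG00000035352) had the lowest Ctr level of the 9, at 0.363, 1.55 and 1.72 CPM, and reached 2.06, 24.5 and 45.1 CPM in αGlu 1 to 3. It rested on 8 reads in Ctr 1 and on 37 in each of the other Ctr libraries, so its Ctr level has the largest counting error of the 9. The groups did not overlap, by a factor of 1.20 between αGlu 1 and the highest Ctr library. Its log2 fold change was 4.30 ± 1.16 (95% interval 1.46 to 7.14, quasi-likelihood adjusted p = 0.157), and 4.83 ± 0.47 without αGlu 1 (adjusted p = 0.000570). DESeq2 gave an adjusted p of 0.000481.

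Ccl8 (ENSMUSG00000009185), the Ccr8 ligand next to Ccl12, was at 0.681, 3.76 and 3.34 CPM in Ctr 1 to 3 and at 22.1, 170 and 350 CPM in αGlu 1 to 3. Unlike for its 3 neighbours, αGlu 1 stood well above the Ctr libraries, by a factor of 5.87 over the highest of them. The log2 fold change was 6.12 ± 1.22 (95% interval 3.14 to 9.09, quasi-likelihood adjusted p = 0.149), and 6.63 ± 0.60 without αGlu 1 (adjusted p = 0.000452). DESeq2 gave an adjusted p of 1.37e-05.

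Ccl5 (ENSMUSG00000035042) had the highest fold change of the 9. It was at 3.59, 7.86 and 13.5 CPM in Ctr 1 to 3 and at 274, 1090 and 1031 CPM in αGlu 1 to 3, so that αGlu 1 already exceeded the highest Ctr library by a factor of 20.3. The log2 fold change was 6.59 ± 0.83 (95% interval 4.57 to 8.60), with an unadjusted p of 0.000202 and an adjusted p of 0.149 in the quasi-likelihood test. The adjusted p of 0.149 was also the smallest of all 11933 genes. Without αGlu 1 the log2 fold change was 6.99 ± 0.52 (adjusted p = 0.000211), and DESeq2 gave an adjusted p of 9.14e-23.

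The 2 macrophage inflammatory proteins, Ccl3 and Ccl4, were called in none of the fits run. Ccl3 (ENSMUSG00000000982) was at 10.1, 18.6 and 20.97 CPM in Ctr 1 to 3 and at 20.02, 9.22 and 13.8 CPM in αGlu 1 to 3, and the groups overlapped. Its log2 fold change of -0.21 ± 0.37 had a 95% interval of -1.12 to 0.69 (quasi-likelihood adjusted p = 0.727), which reaches past a 2-fold decrease but not to a 2-fold increase. Without αGlu 1 it was -0.54 (adjusted p = 0.239), and without αGlu 2 its sign turned, to 0.029.

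Ccl4 (ENSMUSG00000018930) was at 3.09, 9.32 and 10.4 CPM in Ctr 1 to 3 and at 13.4, 12.2 and 17.2 CPM in αGlu 1 to 3. Every αGlu library was higher, but the gap between the groups was small and Ctr 1 lay far below the other Ctr libraries. The log2 fold change was 0.91 ± 0.44 (95% interval -0.16 to 1.99, quasi-likelihood adjusted p = 0.247). Neither DESeq2 (adjusted p = 0.190) nor the fit without αGlu 1 (0.95, adjusted p = 0.140) called it. The ratio of Ccl3 to Ccl4 in TPM was 2.83, 1.72 and 1.74 in Ctr and 1.29, 0.649 and 0.687 in αGlu, without overlap.

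The 2 rodent Ccr1 ligands were the most abundant of the 9 in Ctr and lower in αGlu 2 and 3. Ccl6 (ENSMUSG00000018927) was at 509, 492 and 519.9 CPM in Ctr 1 to 3, a narrow range, and at 578, 59.6 and 60.3 CPM in αGlu 1 to 3. αGlu 1 thus lay above all Ctr libraries and the other 2 αGlu libraries far below them. The log2 fold change over all libraries was -1.13 ± 0.93 (95% interval -3.39 to 1.14, quasi-likelihood adjusted p = 0.452), and DESeq2 gave an adjusted p of 0.384. Without αGlu 1 it was -3.08 ± 0.09 (adjusted p = 1.00e-05).

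Ccl9 (ENSMUSG00000019122) was at 425, 604 and 595 CPM in Ctr 1 to 3 and at 515, 238 and 274 CPM in αGlu 1 to 3. αGlu 1 was within the Ctr range, and the other 2 were below it. For Ccl9 the log2 fold change was -0.66 ± 0.33 (95% interval -1.47 to 0.14, quasi-likelihood adjusted p = 0.257), with a DESeq2 adjusted p of 0.201, and -1.08 ± 0.18 without αGlu 1 (adjusted p = 0.00449). The ratio of Ccl6 to Ccl9 in TPM was 2.03, 1.38 and 1.48 in Ctr, 1.90 in αGlu 1, and 0.424 and 0.374 in αGlu 2 and 3.

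**Figure D2:**
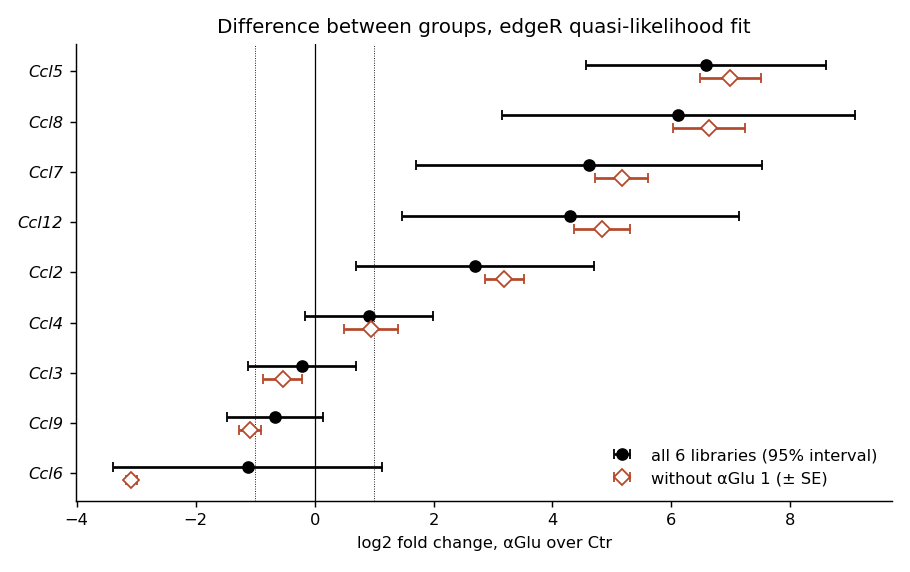
Log2 fold change of each chemokine (αGlu over Ctr, quasi-likelihood fit) with 95% intervals for all 6 libraries (black) and ± SE without αGlu 1 (red), and dotted lines at a log2 fold change of 1 in size. The intervals of Ccl5, Ccl8, Ccl7, Ccl12 and Ccl2 lie above 0, and the point of Ccl6 moves from -1.13 to -3.08 when αGlu 1 is left out.

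The order of the 9 genes by level changed between the groups. In Ctr the mean TPM was 852 ± 30.8 for Ccl6, 535 ± 91.3 for Ccl9 and 64.9 ± 21.5 for Ccl3 (SD, n = 3), and the ranges of these 3 did not overlap with each other. Below them came Ccl4 (34.5 ± 17.6), Ccl5 (25.98 ± 15.3), Ccl2 (18.03 ± 4.35), Ccl7 (16.8 ± 7.46), Ccl8 (15.2 ± 9.68) and Ccl12 (6.74 ± 4.06), and each neighbour in that order overlapped with the next, as did Ccl3 with Ccl4. In αGlu 2 and 3 the order was Ccl5, Ccl8, Ccl7, Ccl9, Ccl12, Ccl2, Ccl6, Ccl4 and Ccl3 in both libraries. Ccl5 was at 3637 and 3531 TPM there and Ccl8 at 1068 and 2252 TPM, against 106 and 110.5 TPM for Ccl6. In αGlu 1 Ccl6 remained the most abundant at 998 TPM, Ccl5 was next at 886 TPM and Ccl9 followed at 525 TPM.

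Summed over the 9 genes, the chemokine mRNA was at 1399, 1612 and 1695 TPM in Ctr 1 to 3 and at 2749, 5860 and 7726 TPM in αGlu 1 to 3, so that every αGlu library was higher. Ccl6 and Ccl9 together made up 93.1%, 87.3% and 85.6% of this sum in Ctr. They made up 55.4% in αGlu 1, and 6.09% and 5.26% in αGlu 2 and 3. Conversely, Ccl2, Ccl5, Ccl7, Ccl8 and Ccl12 together took 2.98% to 6.83% of the sum in Ctr, 39.4% in αGlu 1, and 92.2% and 92.9% in αGlu 2 and 3. Ccl5 alone took 32.2%, 62.1% and 45.7% in αGlu 1 to 3. These shares count mRNA, and the secreted proteins were not measured here.

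**Figure D3:**
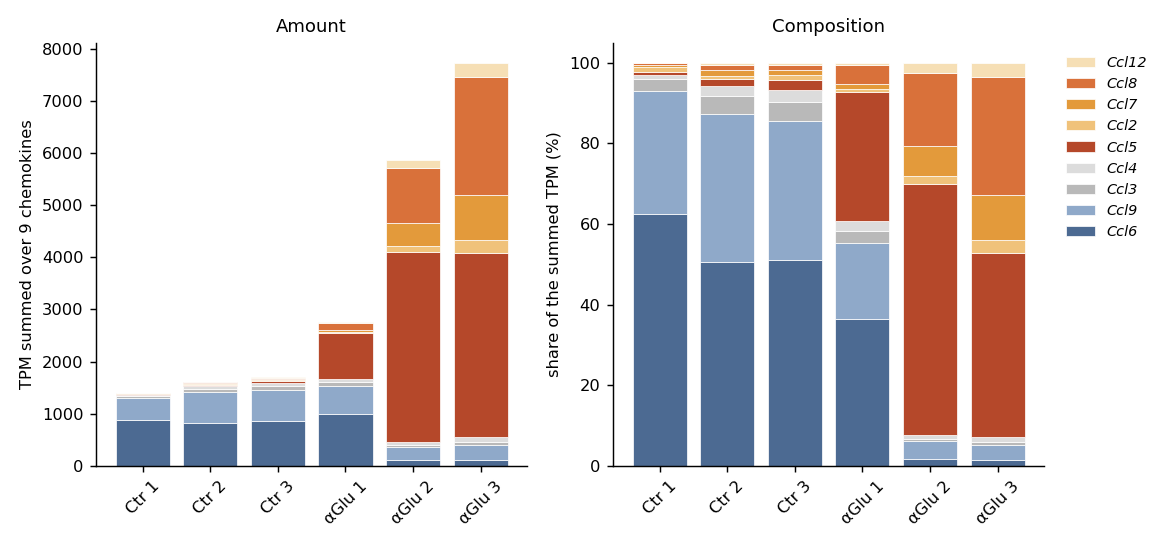
TPM summed over the 9 chemokines in each library (left) and the share of each gene in that sum in percent (right). Ccl6 and Ccl9 (blue) make up at least 85.6% in each Ctr library, 55.4% in αGlu 1 and at most 6.09% in αGlu 2 and 3, where Ccl5 (red) and Ccl8 (orange) take most of a larger sum.

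αGlu 3 exceeded αGlu 2 by a factor of 2.03 for Ccl2, 1.95 for Ccl7, 1.84 for Ccl12 and 2.05 for Ccl8, the 4 genes of the first group of neighbours. Over all genes tested this ratio had a median of 0.996, with 5th and 95th percentiles of 0.683 and 1.33, and between 1.05% and 1.54% of genes had a higher ratio than these 4. In the second group it was 1.49 for Ccl3 and 1.41 for Ccl4, also above the 95th percentile, and 1.15, 1.01 and 0.946 for Ccl9, Ccl6 and Ccl5. In Ctr, 8 of the 9 chemokines were lowest in Ctr 1, all but Ccl6, whereas 36.1% of all genes were lowest in that library. Ccl8 in Ctr 1 was at 0.181 of its level in Ctr 2, and Ccl12 at 0.235.

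Neighbouring genes did not all share a direction. The 4 genes of the first group had log2 fold changes of 2.70 to 6.12, while in the second group Ccl5 at 6.59 stood beside Ccl9 and Ccl6 at -0.66 and -1.13. Of 18 other annotated genes between or next to the chemokines, 10 were in the table and only 1 had enough reads to be tested. It is E230016K23Rik, a long noncoding RNA between members of the second group, which had only 56 reads over all libraries. Its level was 0.460 to 0.696 CPM in Ctr and 0.401, 0.0944 and 0.220 CPM in αGlu 1 to 3 (log2 fold change -1.40 ± 0.54, quasi-likelihood adjusted p = 0.190). Ccl11, the eotaxin gene that lies between Ccl7 and Ccl12, had 12 reads in all, all of them in Ctr 2, and Ccl1, beside Ccl8, had none in any library.

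**Figure D4:**
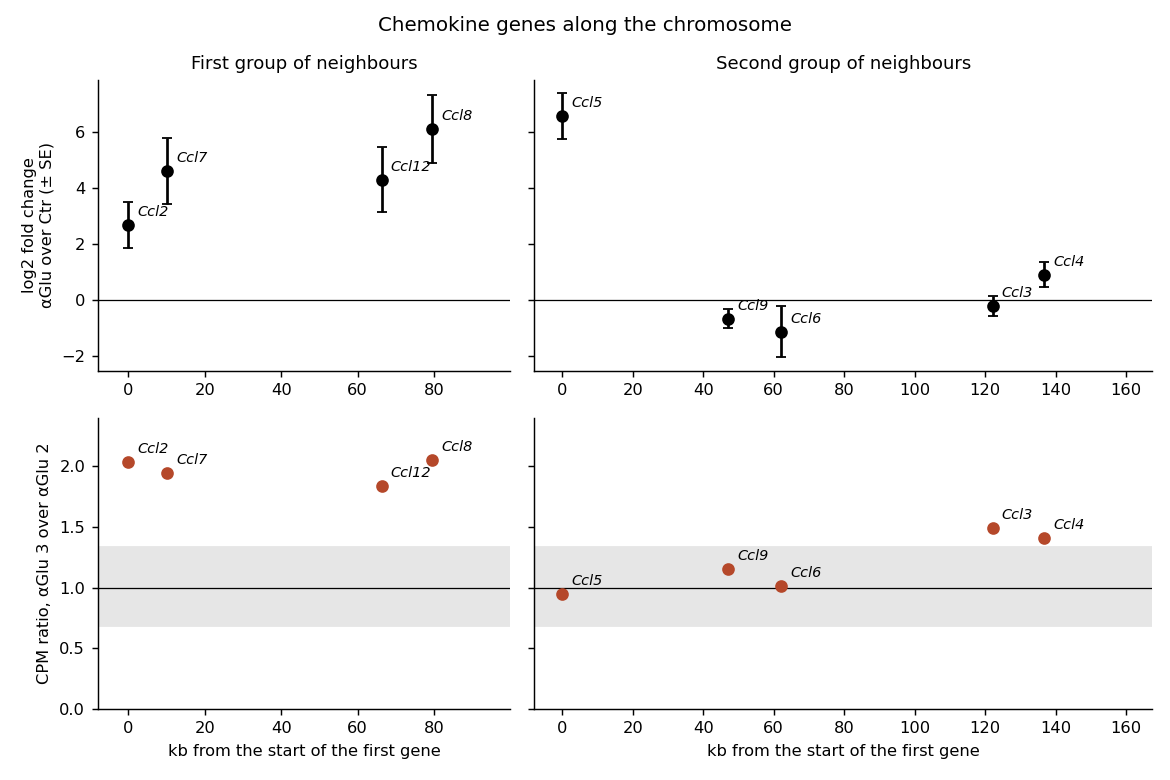
Log2 fold change (αGlu over Ctr, ± SE, top) and CPM ratio of αGlu 3 to αGlu 2 (bottom) against the distance in kb from the start of the first gene of each group of neighbours. Grey bands span the 5th to 95th percentile of the ratio over all genes (0.683 to 1.33), and the 4 genes of the first group have ratios of 1.84 to 2.05.

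Of 15 receptors of CC chemokines, 6 passed the filter on low counts, which all 9 chemokines had passed. The quasi-likelihood test called none of them, with 1 higher and 1 lower at an unadjusted p under 0.05. Ccr2, the receptor of Ccl2, Ccl7 and Ccl12, was at 11.2, 12.04 and 15.96 CPM in Ctr 1 to 3 and at 2.41, 0.409 and 0.844 CPM in αGlu 1 to 3. Here αGlu 1 lay below Ctr with the others, and the log2 fold change was -3.50 ± 0.61 (adjusted p = 0.149, DESeq2 adjusted p = 2.49e-06). Ccrl2, a nonsignalling relative of these receptors that presents chemerin, was at 10.4 to 17.6 CPM in Ctr and 26.1, 30.5 and 18.96 CPM in αGlu 1 to 3 (log2 fold change 0.77 ± 0.26, adjusted p = 0.169). Ccr1, the receptor of Ccl6 and Ccl9, had a log2 fold change of 0.72 ± 0.49 (adjusted p = 0.373). The median of the 6 was 0.63. Without αGlu 1, Ccr2 was called lower and Ccr1 was called higher.

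Of 12 other CC ligands 4 could be tested and none was called by the quasi-likelihood test, with a median log2 fold change of 0.14. Ccl22, a ligand of Ccr4 that IL-4 induces in Mφs, was at 13.04, 9.57 and 10.997 CPM in Ctr and 2.47, 1.61 and 0.990 CPM in αGlu (log2 fold change -2.75 ± 0.34, adjusted p = 0.149). All 3 αGlu libraries lay below all Ctr libraries. Ccl24, an eotaxin that IL-4 also induces, was at 0.251 to 0.636 CPM in Ctr and 0.229, 9.07 and 16.2 CPM in αGlu 1 to 3 (log2 fold change 4.10 ± 1.30, adjusted p = 0.162). DESeq2 called Ccl24 higher (adjusted p = 0.00590) and Ccl22 lower (4.64e-11), and also Ccl17 lower (0.0583), another Ccr4 ligand that had 45 reads in all and was not tested with edgeR on all libraries. Without αGlu 1, the quasi-likelihood test called the same 3 genes in the same directions.

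Genes upstream and downstream of the chemokines were counted from lists fixed by their role. Of 23 transcription factors and regulators that act on chemokine promoters the quasi-likelihood test called none, with 7 higher and 1 lower at an unadjusted p under 0.05, and the median log2 fold change was 0.55. Bcl3 and Nfkbiz, atypical IκB proteins that modulate NF-κB in the nucleus, had the smallest p. Bcl3 was at 8.13, 8.28 and 8.63 CPM in Ctr and 11.01, 59.8 and 55.9 CPM in αGlu (log2 fold change 2.34 ± 0.61, adjusted p = 0.156). Nfkbiz was at 3.43 to 3.50 CPM in Ctr and 4.59, 21.8 and 25.3 CPM in αGlu (2.32 ± 0.61, adjusted p = 0.156). For both, αGlu 1 was just above the Ctr libraries and the other αGlu libraries far above. DESeq2 called 6 of the 23 higher and none lower, and without αGlu 1 the counts were 10 and 1. Over all genes, DESeq2 called 580 (4.23%) higher and 539 lower of 13707. Without αGlu 1, the quasi-likelihood test called 8.05% of all genes higher and 10.5% lower. The same shares belong beside the counts of the other lists, several of which are small.

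Of 12 genes for the decay and stability of chemokine mRNAs, 3 were higher and none lower at an unadjusted p under 0.05, none was called by the quasi-likelihood test, and the median was 0.09. Zfp36l1, which binds AU-rich elements and promotes decay, had a log2 fold change of 2.00 ± 0.54 (adjusted p = 0.157), and Zc3h12a, the RNase Regnase-1, of 1.28 ± 0.37 (adjusted p = 0.159). DESeq2 called 3 of the 12 higher. Of 21 genes for signalling from chemokine receptors 2 were higher and 2 were lower at an unadjusted p under 0.05, with none called by the quasi-likelihood test and a median of -0.17. Arrb2, a β-arrestin that desensitizes receptors, had a log2 fold change of 1.06 ± 0.34 (adjusted p = 0.162), and Rgs18, which shortens G protein signals, of -1.24 ± 0.43 (adjusted p = 0.174). DESeq2 called these 2, Arrb2 higher (adjusted p = 0.0370) and Rgs18 lower (0.0526), and without αGlu 1 the quasi-likelihood test called 1 higher and 4 lower.

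Among 12 proteases that cut chemokines 8 could be tested and none was called, with a median of -0.24. Mmp14, a membrane-bound matrix metalloproteinase, was at 5.27 to 7.38 CPM in Ctr and 6.14, 454 and 477 CPM in αGlu 1 to 3 (log2 fold change 5.62 ± 1.47, adjusted p = 0.156). Mmp12, the macrophage elastase, was at 2503 to 2984 CPM in Ctr and 1176, 301 and 193 CPM in αGlu 1 to 3 (-2.30 ± 0.70, adjusted p = 0.160). DESeq2 called 1 protease higher and 1 lower, and the quasi-likelihood test without αGlu 1 called 2 and 2.

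**Figure D5:**
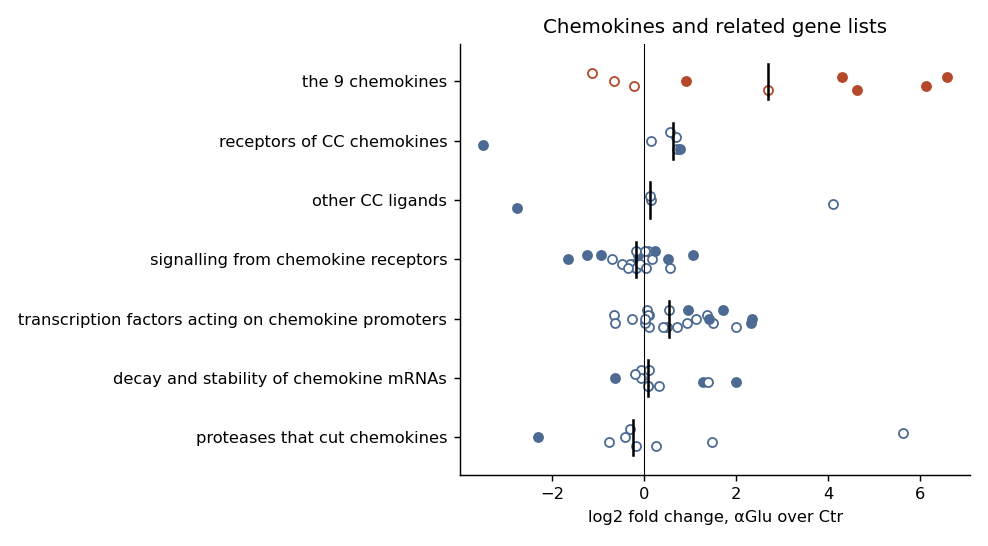
Log2 fold change (αGlu over Ctr, quasi-likelihood fit) of each tested gene of the 9 chemokines (red) and of 6 lists of related genes (blue), with filled points where the groups do not overlap and a vertical bar at the median. The chemokines have a median of 2.70, and the medians of the other lists lie between -0.24 and 0.63.

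The genes whose pattern over the 6 libraries was most like that of the 3 chemokines with the highest fold changes were chosen by the mean absolute difference of log2 CPM, each centred on its own mean, among 8569 well-measured genes that left out the 9 chemokines. For Ccl5 they were Cfb (0.617), Serpina3g (1.07) and AW112010 (1.17), and for Ccl8 the same 3 genes at 0.587, 0.696 and 0.779. For Ccl7 they were Tma16 (0.448), Serpina3g (0.472) and Ptgs2 (0.511). Cfb, complement factor B, was at 1.41, 9.32 and 13.5 CPM in Ctr 1 to 3 and at 93.1, 1120 and 699.5 CPM in αGlu 1 to 3. Like Ccl5 and Ccl8, it was lowest in Ctr 1 and already above Ctr in αGlu 1. Among the chemokines themselves the closest pair was Ccl7 and Ccl12 at 0.229, nearer than any of the 8569 genes was to Ccl12. Ccl5 and Ccl8 differed by 0.663, so that Cfb alone was nearer to Ccl5 than Ccl8 was. These are descriptions over 6 libraries that share the same split between αGlu 1 and the others.

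Markers of other cell types were compared beside the chemokines, some of which T cells and neutrophils also make. All 8 macrophage markers exceeded 1 CPM in every library, with a sum of 11849 to 13404 CPM in Ctr and 12594 to 18784 CPM in αGlu. Lyz2 took the largest part of this sum in every library, and the 8 did not move together. Cd68 was at 1809 to 2063 CPM in Ctr and 1990, 1237 and 1144 CPM in αGlu 1 to 3. Cd14 was at 17.3 to 30.1 CPM in Ctr and 12.4, 293 and 240 CPM in αGlu 1 to 3. All 8 lymphocyte and NK cell markers stayed under 1 CPM in every library, with sums of 0.125 to 0.186 CPM in Ctr and 0.172 to 0.315 CPM in αGlu and with Cd3g and Nkg7 at 0. The 9 neutrophil markers summed to 107 to 160 CPM in Ctr and 186 to 609 CPM in αGlu. Nearly all of this sum was Csf3r, the receptor of granulocyte colony-stimulating factor, and Ly6g was at 0. The 5 platelet markers summed to 6.54 to 11.7 CPM in Ctr and 8.55 to 213 CPM in αGlu. Most of it was Pf4, itself a CXC chemokine, at 3.13 to 3.43 CPM in Ctr and 4.42, 149 and 209 CPM in αGlu 1 to 3. Mast cell and basophil markers summed to at most 3.79 CPM in any library, fibroblast markers to 7.18 CPM and dendritic cell markers to 2.34 CPM.

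The labelled M2 state was checked with 6 genes that IL-4 and IL-13 induce, whose sum was 2803 to 4507 CPM in Ctr and 4011 to 6932 CPM in αGlu. Most of this sum was Chil3, at 1479 to 2895 CPM in Ctr and 3025, 3529 and 2160 CPM in αGlu 1 to 3, and Mrc1. Mrc1 was at 771 to 948 CPM in Ctr and 840, 1513 and 2379 CPM in αGlu 1 to 3. Clec10a was at 7.69 to 12.3 CPM in Ctr and 10.4, 3.75 and 9.54 CPM in αGlu 1 to 3. The 6 genes did not move together. Retnla was at 540, 245 and 289 CPM in Ctr, against 101, 0.0315 and 0.0367 CPM in αGlu 1 to 3, and Mgl2 at 66.3 to 87.9 CPM in Ctr and 10.6, 0.504 and 2.35 CPM in αGlu. Arg1 was at 24.3 to 45.2 CPM in Ctr and 23.5, 1886 and 1792 CPM in αGlu 1 to 3. The part of these shifts in the chemokine levels was not tested.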

How the data were processed

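Bone marrow-derived Mφs of wild type mice were sequenced as stranded mRNA in 3 Ctr and 3 αGlu libraries, described by the study as independent experiments. Reads were processed by the authors in the RNA-seq Analysis Portal of QIAGEN. The processing notes name GRCm38, whereas the aligner and annotation are not stated in the sources used here. Per library the authors deposited counts of exon reads, RPKM, TPM, and a CPM column that is a signal, counts divided by an effective library size. All 24 value columns matched a library. RPKM and the signal column were not used.

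Deposited counts were filtered with filterByExpr (minimum count 10, minimum total 15), scaled by TMM and fitted with edgeR 4.0.16 (quasi-likelihood, group as only term, two-sided, Benjamini-Hochberg adjustment over 11933 genes) in R 4.3.3. SE and 95% intervals came from the F statistic. Calls needed an adjusted p under 0.1 and a log2 fold change above 1 in size. TPM were used as deposited. Alternatives were DESeq2 1.42.0, limma-voom (limma 3.58.1), an edgeR likelihood-ratio test, other scaling and filters, other thresholds, a block for the replicate number, and each library left out. The models were also run on simulated data, with the spread of the Ctr libraries and the same change in every αGlu library. A library set apart from its group, as αGlu 1 is, was not simulated. For 3 against 3, an exact permutation test cannot go below p = 0.1, so none was used.

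Members, lists and tests were chosen with earlier results of these data known. All 9 members are named, and from each related list the 2 genes with the smallest p. Ccr1, E230016K23Rik, Heatr9, Ccl1, Ccl17, Ccl11, Lyz2, Cd68, Cd14, Csf3r, Pf4, Chil3, Mrc1, Clec10a, Retnla, Mgl2 and Arg1 were named after their values had been seen. Promoters were taken from RefSeq, and gene positions and transcripts from GENCODE M21, in which the deposited Ensembl identifiers of all 9 were found. The ASO sequence was copied from the supplement of the study.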

Additional observations from a re-analysis of the deposited data

How the results depend on the processing

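The number of chemokines called was 0 with the quasi-likelihood test on all 6 libraries, 5 with DESeq2, 5 with an edgeR likelihood-ratio test and 1 (Ccl5) with the replicate block. Over all genes the corresponding counts were 0, 1119, 899 and 17. Leaving out 1 library at a time gave 0 to 7 chemokines and 0 to 2290 genes, and every call came from leaving out αGlu 1. The count was 0 with limma-voom, the other scalings and filters, an adjusted p under 0.05 and no limit on the fold. The number of chemokines without overlap between groups was 5 to 8 when 1 library was left out, and 33.8% to 65.9% of all genes did not overlap in those settings, with both highest values without αGlu 1. The median log2 fold change of the 9 was 1.84 to 3.19 in those fits. The log2 fold change of Ccl3 ranged from -0.54 to 0.029 in them, and was above 0 only without αGlu replicate 2. The cause of these differences was not tested. The deviations of libraries with the same number correlated at 0.08, 0.06 and 0.15 across genes, above the -0.11 to 0.046 of other pairs. Whether equal numbers mark a shared experiment is not stated for these libraries in the sources used here. For the fragment level after the same kind of transfection, the paper used a paired t test. A pairing of the libraries thus remains possible. The main fit holds no block. With the replicate block, the quasi-likelihood adjusted p was 0.0700 for Ccl5 and 0.10004 for Ccl8.

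With 3 libraries a group and αGlu 1 apart from the others, the fits on 6 libraries carry wide intervals. Ccl12 and Ccl8 in Ctr 1 rest on 8 and 15 reads. How the counting split reads between related chemokine genes, or between Ccl3 and the overlapping model of Ccl4, is not known here.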
